A study of Mus musculus with 4 samples.

Results

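The MHC class II genes described here were 7 of the 31054 features in the count tables: H2-Aa, H2-Ab1, H2-Eb1, H2-DMa, H2-DMb1, Cd74 and Ciita. They were chosen by symbol, and each matched 1 row in all 4 libraries. The cells came from the mouse intestinal epithelium and were sorted for expression of a Bmi1-GFP reporter, which is carried by the mice of every group and marks cells that transcribe the Bmi1 locus. The groups were embryos at day 12.5 (E12.5), embryos at day 17.5 (E17.5), adults and irradiated adults, with 1 droplet library (10x Genomics, 3' end counting) for each. The dose of irradiation, the time from irradiation to sampling, the age of the adults, the number and sex of the animals pooled and the sorting gates are not given in the sources used here. With 1 library in each group there was no replicate check and no test, and the 95% intervals below cover counting error only. A difference between libraries therefore cannot be told apart from a difference between animals, sorts or preparations.

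MHC class II molecules present peptides from proteins taken up into endosomes to CD4+ T cells. H2-Aa and H2-Ab1 are the alpha and beta chains of the I-A molecule, and H2-Eb1 is the beta chain of I-E. Cd74, the invariant chain, blocks the groove until the endosome is reached, H2-DMa and H2-DMb1 form the DM molecule that exchanges its remnant for antigenic peptide, and Ciita is the coactivator that switches the whole set on. Dendritic cells, macrophages and B cells express these genes constitutively, and the adult intestinal epithelium expresses them too, with interferon gamma as the known inducer of Ciita outside the immune system.

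By the GENCODE M21 annotation of GRCm38, the build the submitters' processing notes give as mm10, all 7 members are protein-coding genes. The 5 on chromosome 17 lay within 197 kb: H2-DMa at chr17:34119541-34139101 (+ strand), H2-DMb1 at chr17:34153072-34160230 (+), H2-Ab1 at chr17:34257689-34269419 (+), H2-Aa at chr17:34282744-34287823 (- strand) and H2-Eb1 at chr17:34305867-34316674 (+). Ciita was at chr16:10480059-10528418 (+). Counting by strand is not given in the sources used here, so reads from genes that overlap a member on the other strand could not be set aside. H2-DMa overlapped Brd2 over 3094 bases, Ciita overlapped Dexi over 25888 bases and H2-Eb1 overlapped the antisense gene Gm20513 over 2204 bases. H2-DMb1 and its neighbour H2-DMb2 are near-identical copies, so the split of reads between them is uncertain.

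Promoter windows of the RefSeq table (GRCm38.p6, 250 bases before and 50 after the start site) matched 4 of the 7 members. They are shown because the members differed together between libraries and Ciita binds no DNA itself: factors bound to a conserved X box and Y box are known to hold it at class II promoters. Motifs searched on both strands were ATTGG (the Y box core, an inverted CCAAT), the core of the X1 box (found below as AGCAACTGAT and AGTAACTGAT) and the CREB and AP-1 type cores TGNNGTCA and TGNGTCA. Below, the 250 bases before the start site are printed 5' to 3' on the gene's strand for 3 members, with every match in capitals.
H2-Aa, chr17:34287824-34288073, minus strand: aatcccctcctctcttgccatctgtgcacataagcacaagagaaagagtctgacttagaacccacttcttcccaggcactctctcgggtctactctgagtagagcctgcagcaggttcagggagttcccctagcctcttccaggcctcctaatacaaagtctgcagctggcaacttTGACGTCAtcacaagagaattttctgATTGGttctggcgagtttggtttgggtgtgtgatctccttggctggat
H2-Eb1, chr17:34305617-34305866, plus strand: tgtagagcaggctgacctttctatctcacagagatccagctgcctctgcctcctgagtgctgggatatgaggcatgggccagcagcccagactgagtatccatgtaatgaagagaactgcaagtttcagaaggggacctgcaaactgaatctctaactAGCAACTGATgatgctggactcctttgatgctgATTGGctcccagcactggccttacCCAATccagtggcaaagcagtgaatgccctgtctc
H2-DMb1, chr17:34152941-34153190, plus strand: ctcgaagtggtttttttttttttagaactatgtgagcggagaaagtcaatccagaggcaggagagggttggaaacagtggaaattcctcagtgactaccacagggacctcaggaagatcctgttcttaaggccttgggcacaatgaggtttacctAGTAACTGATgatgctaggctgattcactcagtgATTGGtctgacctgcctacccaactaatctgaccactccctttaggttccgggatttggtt
H2-Eb1 and H2-DMb1 held the same arrangement: AGCAACTGAT began 92 bases before the start site in H2-Eb1 and AGTAACTGAT 95 bases before it in H2-DMb1, followed by ATTGG 23 and 24 bases further on. H2-Eb1 held a further CCAAT 35 bases before the start. H2-Aa held no such X1 core, but TGACGTCA, which matches TGNNGTCA on both strands, began 74 bases before the start with ATTGG 18 bases behind it. Of the 2 H2-DMa windows, 1 held no match, and the other held ATTGG 198 bases and TGAGTCA 86 bases before its start. Over all 32851 windows of 300 bases, the X1 core occurred in 2.68%, TGNGTCA in 15.4%, TGNNGTCA in 18.6% and ATTGG in 37.4%. A match describes these letters only and no binding was measured.

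The libraries held 38648331 to 90674425 UMIs (tags that each mark 1 original RNA molecule) over 5216 to 6287 barcodes. The filter asked for 500 detected genes or more and no more than 20% mitochondrial UMIs, and cells that met it made up 81.0% and 88.0% of barcodes in the fetal libraries but 60.3% in adults and 53.1% after irradiation. Pairs of libraries shared 6 to 12 barcode sequences. Clusters were named from marker lists, with the suffix -like. The gut epithelium analysed here left out pancreatic and non-epithelial clusters and every cell with a UMI of Ptprc, the pan-leukocyte gene, which is treated apart. It comprised 4050 cells at E12.5, 3472 at E17.5, 3037 in adults and 2691 after irradiation, with median depths of 18081.5, 11641, 3332 and 8482 UMIs. The makeup of the libraries differed: 72.3% of adult and 70.2% of irradiated adult cells were enteroendocrine-like, while no cluster at E12.5 was.

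Class II transcripts were almost absent from fetal epithelium, abundant in adults and several times less abundant after irradiation. Summed over the 7 genes, the level was 3.46 UMIs per 1000000 UMIs (CPM; 95% interval 3.07 to 3.88, 284 UMIs) at E12.5, 6.65 CPM (6.03 to 7.33, 413 UMIs) at E17.5, 170 CPM (165 to 175, 4444 UMIs) in adults and 25.7 CPM (24.0 to 27.4, 878 UMIs) after irradiation. None of these intervals overlapped. Because each RNA gives 1 tag near its 3' end, the CPM values were not scaled by gene length.

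Of the chains that carry the peptide, H2-Ab1 was the most abundant member in the adult. Its level was 0.925 CPM (0.729 to 1.16) at E12.5, 1.95 CPM (1.62 to 2.33) at E17.5, 54.4 CPM (51.6 to 57.3) in adults and 7.31 CPM (6.43 to 8.28) after irradiation. Its partner H2-Aa gave 1 UMI at E12.5 and 0 UMIs at E17.5, where 3 UMIs would be 0.0483 CPM, then 16.7 CPM (15.2 to 18.4) in adults and 0.731 CPM (0.473 to 1.08) after irradiation. H2-Eb1 was at 0.170 CPM (0.0932 to 0.286), 0.354 CPM (0.222 to 0.536), 33.4 CPM (31.3 to 35.7) and 5.41 CPM (4.66 to 6.25) in the same order. Transcripts of the beta chain of I-A were present at low level before birth, whereas those of its alpha chain were at the limit of detection.

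The peptide editor showed a different fetal pattern. H2-DMa was the most abundant member in both fetal libraries, at 2.00 CPM (1.70 to 2.33) at E12.5 and 4.12 CPM (3.63 to 4.66) at E17.5. It held 57.7% and 62.0% of the member UMIs there, against 9.16% in the adult, where it reached 15.6 CPM (14.1 to 17.2). In the irradiated adult it was at 2.02 CPM (1.57 to 2.55), an interval that overlaps that of E12.5. The overlapping gene Brd2 was at 127, 81.5, 148 and 181 CPM in the same order of libraries, and its part in the H2-DMa counts was not tested. The other DM chain, H2-DMb1, was at 0.316 CPM (0.207 to 0.464) at E12.5, 0.161 CPM (0.0772 to 0.296) at E17.5, 6.66 CPM (5.71 to 7.72) in adults and 0.643 CPM (0.403 to 0.974) after irradiation.

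Cd74 and Ciita were at or near 0 in fetal epithelium. Cd74, at chr18:60803848-60812652 (+), gave 3 UMIs at E12.5 and 4 at E17.5, then 1052 UMIs or 40.3 CPM (37.9 to 42.8) in adults and 318 UMIs or 9.30 CPM (8.30 to 10.4) after irradiation. Ciita gave 0 UMIs in both fetal libraries, 78 UMIs or 2.98 CPM (2.36 to 3.72) in adults and 9 UMIs or 0.263 CPM (0.120 to 0.50) after irradiation. The invariant chain made up 23.7% of member UMIs in adults and 36.2% after irradiation, where H2-Ab1 was at 28.5%. That order rests on 1 irradiated cell, without which Cd74 held 29.4% (229 UMIs) and H2-Ab1 32.0% (249 UMIs).

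**Figure D1:**
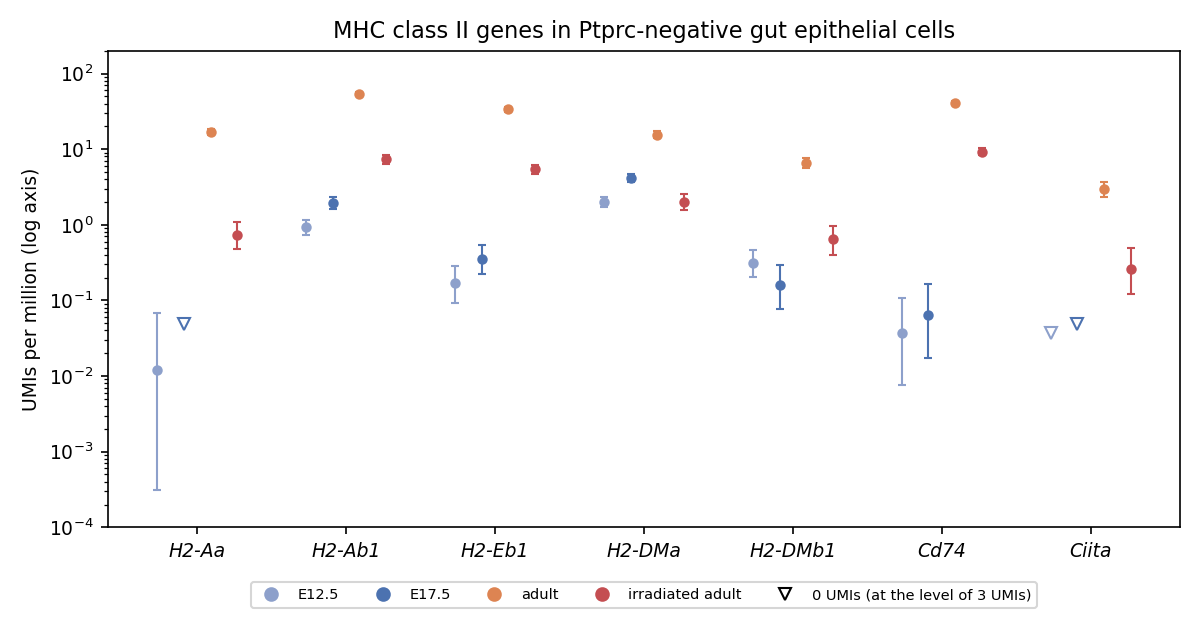
Level of each MHC class II gene (CPM, log axis) in Ptprc-negative gut epithelial cells, with 1 point per library, exact Poisson 95% intervals as bars and open triangles at the level of 3 UMIs where a library held 0. The adult point lies above the other 3 for each of the 7 genes, and the fetal points of H2-DMa lie above those of the other genes.

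Between E12.5 and E17.5 the summed level was 1.92-fold higher (1.65 to 2.25). H2-Ab1 was 2.11-fold higher (1.57 to 2.84) and H2-DMa 2.07-fold (1.69 to 2.53). Compared as log2((CPM + 1)/(CPM + 1)), where the added 1 shrinks low genes, those differences were 0.62 and 0.77. Of the 2 members that reached 50 UMIs in either library, 0 were past 2-fold on this scale, where 15.4% of the 14194 genes tested were at least 2-fold higher and 17.1% at least 2-fold lower. H2-DMb1 had a lower point value at E17.5, by 1.97-fold with an interval from 0.917 to 4.57 that includes no difference, and H2-Aa gave 1 UMI and 0.

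From E17.5 to the adult all 7 members were past 2-fold higher, where 14.1% of 13367 genes were (14.4% lower), and their median log2 ratio was 4.15 against -0.10 over all genes tested. The summed level was 25.6-fold higher (23.1 to 28.3). The members did not move by one factor: the ratio was 3.78-fold (3.22 to 4.43) for H2-DMa, 27.9-fold (23.2 to 33.9) for H2-Ab1, 41.3-fold (21.9 to 87.7) for H2-DMb1, 94.4-fold (61.9 to 151) for H2-Eb1 and 625-fold (243 to 2297) for Cd74. Against the level of 3 UMIs at E17.5, H2-Aa was 346-fold higher (interval from 280-fold upward) and Ciita 61.8-fold higher (from 49.1-fold upward).

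In the irradiated adult all 7 members were past 2-fold lower than in the adult, where 5.71% of 12583 genes were (2.86% higher), with a median log2 ratio of -2.43 against -0.06 over all genes. The summed level was 6.62-fold lower (6.16 to 7.13). Cd74 was 4.33-fold lower (3.81 to 4.92), H2-Eb1 6.18-fold (5.27 to 7.28), H2-Ab1 7.44-fold (6.50 to 8.55), H2-DMa 7.72-fold (5.97 to 10.1), H2-DMb1 10.3-fold (6.62 to 16.9), Ciita 11.3-fold (5.68 to 25.7) and H2-Aa 22.9-fold (15.3 to 35.7). The interval of H2-Aa lay apart from those of Cd74, H2-Eb1, H2-Ab1 and H2-DMa. Cd74 had the smallest ratio, but without the cell with most member UMIs in each library it was 5.59-fold lower (4.83 to 6.48), which overlaps H2-Eb1 at 6.09-fold (5.17 to 7.21). The irradiated library had no cluster that met the markers of crypt base columnar stem cells, and with the adult cluster of that name left out the adult level was 105 CPM, a difference of -1.99 in log2 in place of -2.68.

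Within the adult, class II transcripts were concentrated in small classes outside the enteroendocrine-like majority. The stem-like cluster, led by Ifitm3, Clca3b and the stem gene Olfm4 together with the proliferation genes Mki67 and Top2a, had a summed level of 445 CPM (426 to 464, 100 cells). Enterocyte-like cells, the absorptive lineage, followed at 382 CPM (360 to 405, 71 cells), and an unnamed cluster with shallow cells (135 cells, median 2017 UMIs) was at 355 CPM (293 to 426). The interval of the unnamed cells overlapped that of the enterocyte-like cells. The order of these 3 classes depended on the cells counted: with putative doublets kept, stem-like cells were at 375 CPM and enterocyte-like cells at 501, and without cells holding a leukocyte-list UMI they were at 342 and 362. Unnamed cells were at 90 CPM with every barcode, 128 with doublets kept and 144 at a clustering resolution of 2. Paneth-like cells, which secrete antimicrobial peptides at the crypt base, were at 112 CPM (101 to 123, 74 cells).

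The 2 large adult classes were lowest. Enteroendocrine-like cells, the hormone-secreting lineage, were at 44.3 CPM (40.7 to 48.1, 2196 cells), and tuft-like cells, chemosensory cells known for their role in type 2 immunity, at 32.8 CPM (25.1 to 42.3, 461 cells), with overlapping intervals. Both were below the 126 CPM of adult barcodes that failed the cell filter (118 to 135). Paneth-like cells, at 112 CPM (101 to 123), had an interval that overlaps that of the failed barcodes. The part of RNA from outside the cell in these classes was not tested. As shares of the library, stem-like cells held 50% of all member UMIs in 3.29% of the cells and 19.1% of all UMIs. Enterocyte-like cells held 24.6% in 2.34% of the cells, and enteroendocrine-like cells held 12.5% in 72.3%. The adult library value thus rests mainly on the 100 stem-like and 71 enterocyte-like cells.

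In the irradiated adult the order began with enterocyte-like cells, at 83.0 CPM (75.0 to 91.6, 87 cells). This cluster was led by Ccnd1, Apoa4, Ces2e and Prap1 and also held Ube2c and Areg, so its top genes mixed absorptive and cycling genes. Unnamed cells (40.3 CPM, 26.1 to 59.4), enteroendocrine-like (19.2 CPM, 17.3 to 21.3), tuft-like (18.4 CPM, 12 to 27) and goblet-like cells (16.7 CPM, 11.1 to 24.1) came next, the last 3 with overlapping intervals. Paneth-like cells were lowest at 6.04 CPM (4.33 to 8.19). Rfx5, Rfxap, Rfxank, Nfya, Nfyb, Nfyc and Creb1, described below, were each also lower there than in enteroendocrine-like, tuft-like and enterocyte-like cells. Rfx5 was at 1.77 CPM against 10.9 in enterocyte-like cells. The part of the RNA makeup of Paneth-like cells in their rank was not tested. The tuft-like value was 8.38 to 9.77 CPM with every barcode, under the stricter filter or with doublets kept, and the unnamed value 11.7 CPM under the stricter filter. Among the unnamed cells, a cluster of 72 led by Ly6d, Clu, Lgals3, Ly6a and Anxa3 was at 105 CPM, but from 14 UMIs (57.4 to 176).

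Fetal classes spanned a narrow range. At E17.5 enterocyte-like cells were at 7.96 CPM, enteroendocrine-like at 7.41 CPM, goblet-like at 6.58 CPM and epithelial cells without a lineage at 5.40 CPM, and all 4 were below every adult class. Pancreatic acinar-like cells, which are outside the gut epithelium and came with the E17.5 sort, held 11 member UMIs or 1.57 CPM. At E12.5 the cells without a lineage were at 3.41 CPM, and 7 UMIs in 197 unnamed cells gave 6.79 CPM, a value that was 1.81 CPM with doublets kept.

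**Figure D2:**
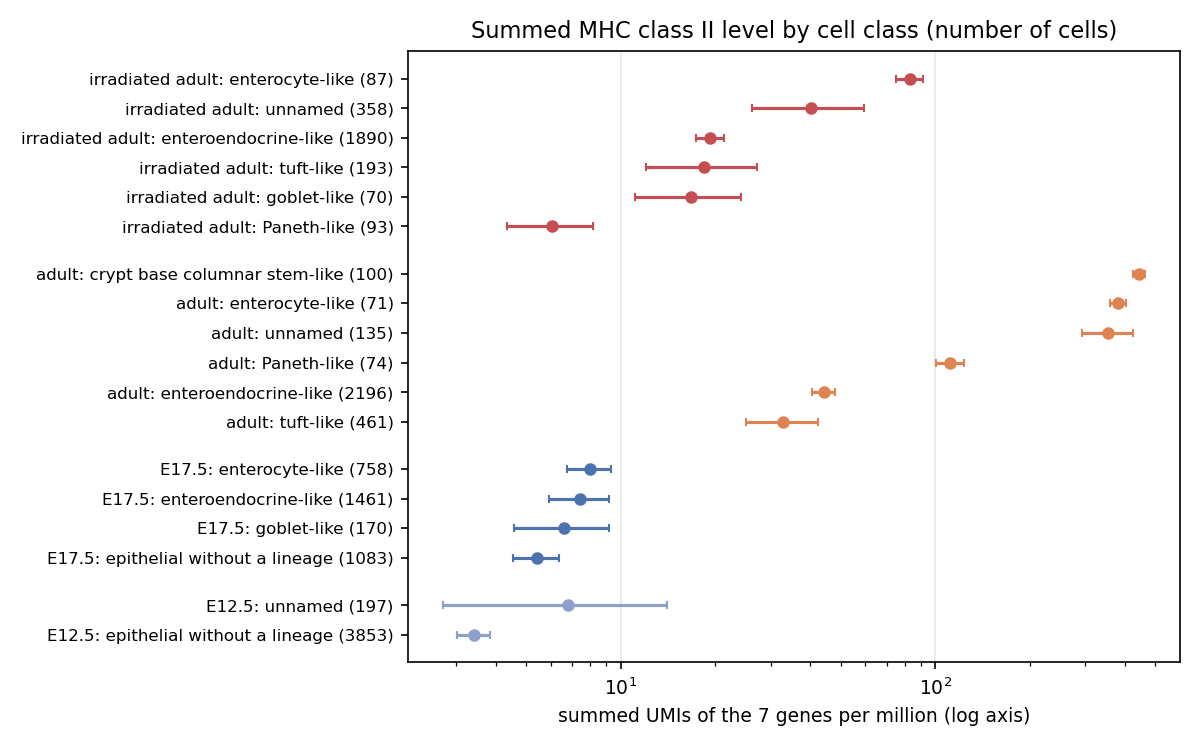
Summed level of the 7 genes (CPM, log axis) in each cell class of at least 50 Ptprc-negative gut epithelial cells, grouped by library, with exact Poisson 95% intervals. Adult stem-like, enterocyte-like and unnamed cells lie between 355 and 445 CPM, above the other classes of all 4 libraries, although unnamed cells are at 90 CPM with every barcode.

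The adult stem-like and enterocyte-like cells had all 7 members. In stem-like cells H2-Ab1 was at 121 CPM, Cd74 at 114, H2-Eb1 at 97.7, H2-Aa at 47.6, H2-DMa at 43.0, H2-DMb1 at 14.0 and Ciita at 7.40 CPM (37 UMIs). Enterocyte-like cells had H2-Ab1 at 120 CPM, Cd74 at 95.6, H2-Eb1 at 56.5, H2-DMa at 42.6, H2-Aa at 37.7, H2-DMb1 at 22.7 and Ciita at 6.28 CPM. Both chains of I-A, the beta chain of I-E, invariant chain, editor and coactivator were thus all detected in both classes. The alpha chain of I-E, H2-Ea, was not found by symbol in the count tables, so the I-E pair could not be read.

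Enteroendocrine-like cells had a different mixture. H2-Ab1 made up 53.6% (49.4 to 57.8) of member UMIs in adult enteroendocrine-like cells and 45.0% (32.1 to 58.4) in tuft-like cells, against 27.2% (25.4 to 29.1) in stem-like, 26.1% (21.9 to 30.7) in Paneth-like and 31.5% (28.8 to 34.4) in enterocyte-like cells. Cd74 made up 13.7% (10.9 to 16.8) in enteroendocrine-like and 25.6% (23.8 to 27.5) in stem-like cells. Enteroendocrine-like cells were at 23.7 CPM for H2-Ab1 and 1.11 CPM for Ciita (14 UMIs), while Ptprc-negative tuft-like cells gave 0 UMIs of H2-DMb1 and of Ciita in adults and after irradiation. The Ptprc-positive ones gave 3 UMIs of H2-DMb1 in the adult and 2 of Ciita after irradiation. The share of H2-Ab1 in enteroendocrine-like cells lay above those of stem-like, Paneth-like and enterocyte-like cells by more than counting error, while the interval of the tuft-like cells overlapped that of the enterocyte-like cells.

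**Figure D3:**
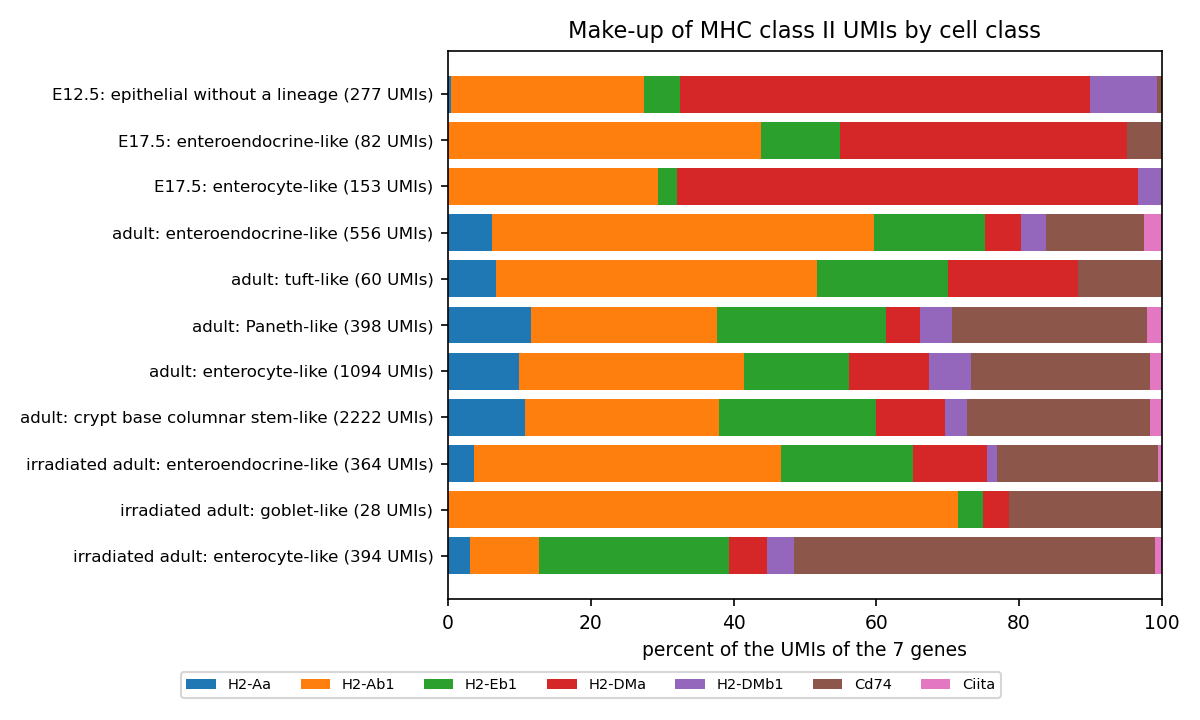
Share of each gene (percent of the member UMIs, stacked bars) in 11 cell classes. H2-DMa holds 57.4% of the E12.5 bar and 64.7% of the E17.5 enterocyte-like bar, H2-Ab1 is the largest part of the adult enteroendocrine-like bar at 53.6%, and Cd74 that of the irradiated enterocyte-like bar at 50.5%, or 37.3% without 1 cell.

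The level also differed between clusters of the enteroendocrine-like class. Among 7 adult enteroendocrine-like clusters the summed level was 33.6 to 45.5 CPM in 6 and 67.5 CPM (56.5 to 80.1, 150 cells) in the cluster led by Gip, the incretin of K cells, and Fabp5. Adult tuft-like clusters spanned 20.6 to 39.6 CPM with overlapping intervals. In the irradiated adult, enteroendocrine-like clusters spanned 11.2 to 26.5 CPM apart from a cluster of 74 cells that gave 1 member UMI.

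From E17.5 to the adult, the summed level was 5.97-fold higher (4.73 to 7.63) in enteroendocrine-like cells and 48.0-fold higher (40.5 to 57.2) in enterocyte-like cells. The limit given above for RNA from outside the cell applies to both ratios. At E17.5 the barcodes that failed the filter were at 50.6 CPM, above each gut class there. Within enterocyte-like cells H2-Eb1 was 272-fold (104 to 1009) and Cd74 at least 613-fold higher. Outside the enteroendocrine-like and tuft-like classes Cd74 gave 969 UMIs in the adult and 0 at E17.5, at least a 1403-fold difference. H2-DMa did not share the difference in enteroendocrine-like cells: 28 adult and 33 fetal UMIs gave a ratio of 0.748 (0.435 to 1.28), which includes no difference, whereas the library ratio of this gene was 3.78.

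The lower level after irradiation was also present within each of the 4 named classes that both adult libraries held. It was 2.30-fold lower (2.02 to 2.64) in enteroendocrine-like, 1.78-fold (1.11 to 2.94) in tuft-like (where leaving out cells with a leukocyte-list UMI turned the direction), 4.60-fold (4.10 to 5.18) in enterocyte-like and 18.5-fold (13.4 to 26.2) in Paneth-like cells. The 2 enterocyte-like clusters were unlike: their leading genes held 3 enterocyte markers in the adult and 1, beside cycling genes, after irradiation. The part of that difference in the enterocyte-like ratios here and below was not tested. Enteroendocrine-like cells are the class with most cells on both sides. There H2-Ab1 was 2.86-fold (2.35 to 3.50), H2-Eb1 1.94-fold (1.39 to 2.71) and Cd74 1.40-fold lower (1.01 to 1.93), while H2-DMa at 1.11-fold (0.657 to 1.86) included no difference. Ciita went from 14 UMIs to 2 in these cells. Median depth also differed between the libraries, from 3189.5 to 9447 UMIs in enteroendocrine-like and from 30268.5 to 96627 UMIs in Paneth-like cells, and its part in these ratios was not tested. The part of RNA from outside the cell in them was not tested either.

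In enterocyte-like cells the chains of I-A separated from H2-Eb1 and Cd74. H2-Ab1 was 15.0-fold lower (10.7 to 21.6) and H2-Aa 14.9-fold, against 2.56-fold (1.99 to 3.30) for H2-Eb1 and 2.28-fold (1.89 to 2.75) for Cd74. Cd74 held 50.5% of the member UMIs in irradiated enterocyte-like cells and 25% in adult ones, and H2-Ab1 held 9.64% and 31.5%. A single irradiated cell held 99 of the 394 UMIs and a single adult cell 190 of 1094. Without these cells the ratios were 14.0-fold for H2-Ab1, 2.25-fold for H2-Eb1 and 3.43-fold for Cd74, and Cd74 held 37.3% of the irradiated and 24.3% of the adult member UMIs.

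Tuft-like cells rest on few molecules, and with cells holding a leukocyte-list UMI left out the irradiated ones were higher, at 31.3 CPM against 25.1 in the adult. Cd74 gave 14 UMIs in the irradiated and 7 in the adult cells, 2.59-fold higher with an interval of 0.979 to 7.59, but 1 irradiated cell held 9 of the 26 member UMIs. Without the highest cell of each library Cd74 gave 5 and 6 UMIs, and the summed level was 2.58-fold lower. Paneth-like cells had the opposite pattern to enterocyte-like cells: H2-Eb1 was 35.8-fold lower (14.8 to 113) and Cd74 34.6-fold (15.4 to 96.3), against 8.25-fold (5.25 to 13.5) for H2-Ab1. These ratios rest on 5, 6 and 24 irradiated UMIs, and without the highest cell of each library on 4, 1 and 22. H2-Aa gave 46 UMIs in adults and 0 after irradiation, 29.2-fold lower against the level of 3 UMIs, with an interval from 22.8-fold upward. A single irradiated Paneth-like cell held 11 of the 41 member UMIs, and without the highest cell of each library the summed level was 22.0-fold lower.

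**Figure D4:**
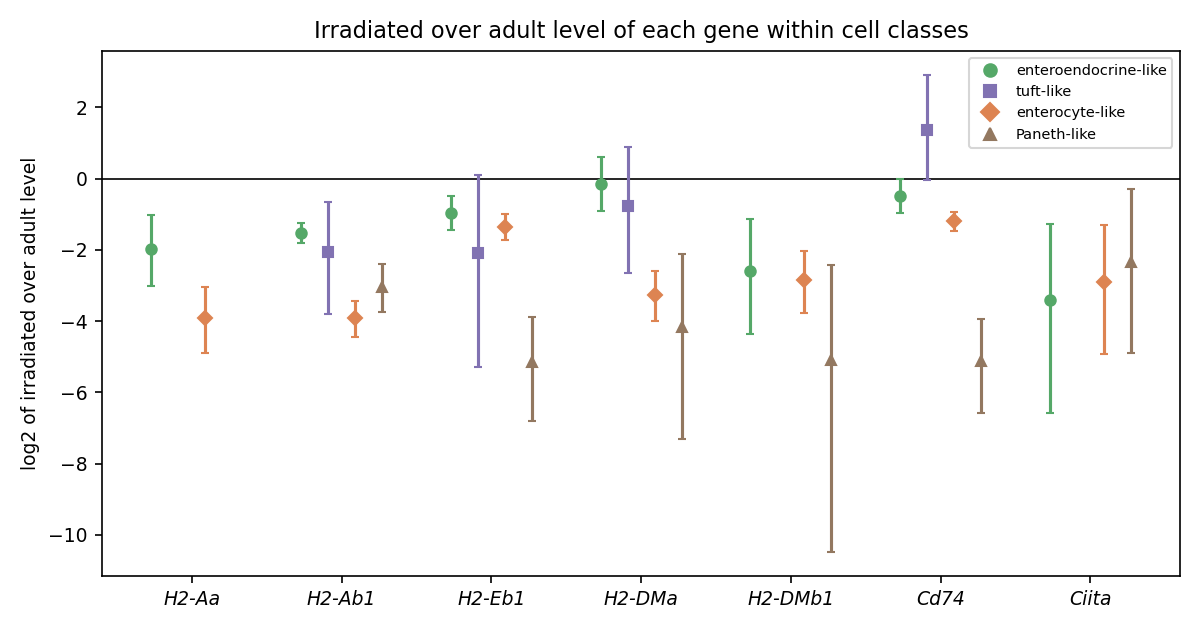
Log2 ratio of CPM (irradiated adult over adult) for each gene within 4 cell classes, with exact conditional binomial 95% intervals, and no point where either library held 0 UMIs. H2-Ab1 and H2-Aa lie far below H2-Eb1 and Cd74 in enterocyte-like cells, and Cd74 in tuft-like cells, with 14 and 7 UMIs, has the point above 0.

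Since depth differed, shares of cells with a transcript were computed from 2000 UMIs drawn at random from each cell. At this depth 0.546% of E12.5 cells (19 of 3479; 0.329 to 0.852), 1.51% of E17.5 cells (50 of 3321; 1.12 to 1.98), 11.1% of adult cells (269 of 2416; 9.91 to 12.5) and 3.28% of irradiated adult cells (73 of 2224; 2.58 to 4.11) had a UMI of any member. The unthinned shares were 6.62%, 10.5%, 22.3% and 14.5%. As a measure of background in the E17.5 library alone, 0 of 515 thinned acinar-like cells had one, which allows a share of up to 0.583%, at a median depth of 12670 UMIs against 12741 in the gut epithelium. Unthinned, 2.06% of acinar-like cells had one, so background was not 0, against 10.5% of the gut epithelium of that library. Barcodes of that library that failed the filter were at 50.6 CPM, above the 6.65 CPM of its gut epithelium. Acinar-like cells therefore set no upper limit on the background. The part of their RNA makeup in these shares was not tested.

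In the adult a thinned transcript was found in 59.6% of stem-like cells (49.0 to 69.6), 39.7% of unnamed, 33.9% of enterocyte-like (22.3 to 47.0), 14.9% of Paneth-like, 7.90% of tuft-like (5.47 to 11) and 7.12% of enteroendocrine-like cells (5.95 to 8.44). Stem-like cells were highest and the enteroendocrine-like and tuft-like classes lowest, as in the levels, and the intervals of those 2 classes overlapped here too. In the irradiated adult the share was 15.7% in enterocyte-like (8.61 to 25.3), 2.70% in enteroendocrine-like (1.99 to 3.57) and 0 of 89 in Paneth-like cells, which allows up to 3.37% at 3 cells. Unthinned, 25.8% of those Paneth-like cells had a member UMI, and the limit given above for their CPM applies to the thinned share too.

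A small share of cells carried much of the signal in adults. The highest 1% of cells held 47.7% of the member UMIs in adults and 46.2% after irradiation, against 19.7% at E12.5 and 17.4% at E17.5. No fetal cell had more than 3 member UMIs, while 101 adult and 15 irradiated cells had at least 10, up to 250 and 99. To reach 50% of the signal took 33 adult cells (1.09%) and 36 irradiated cells (1.34%), against 3.11% of cells at E12.5 and 4.58% at E17.5. At 90% of the signal the order was another, with 5.93% of cells at E12.5, 9.33% at E17.5, 8.69% in adults and 11.2% after irradiation.

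**Figure D5:**
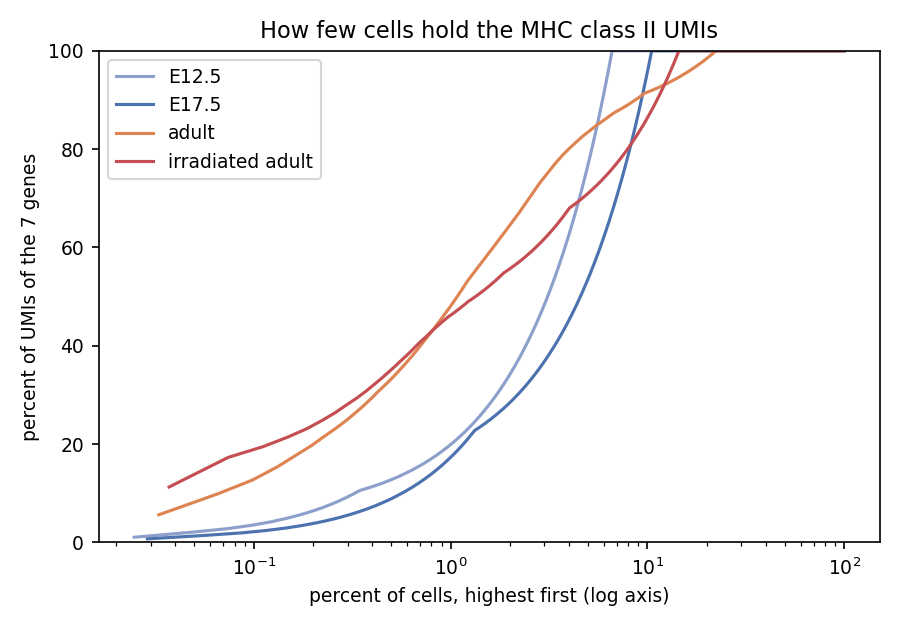
Cumulative share of the member UMIs (percent) against the share of cells (percent, log axis), with cells ordered from most to fewest member UMIs, for each library. The adult and irradiated curves rise steeply, with 47.7% and 46.2% of UMIs in the first 1% of cells, and the fetal curves start lower, although the E12.5 curve reaches 90% at 5.93% of cells, before the adult curve at 8.69%.

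Members were also counted in the same cells. Among adult enteroendocrine-like cells thinned to 2000 UMIs, H2-Eb1 was found in 6 of 63 cells with H2-Ab1 (9.52%; 3.58 to 19.6) and in 17 of 1650 cells without it (1.03%; 0.601 to 1.64). Outside the enteroendocrine-like and tuft-like classes the shares were 23.3% (10 of 43; 11.8 to 38.6) and 12.2% (31 of 255; 8.41 to 16.8), with overlapping intervals. In adult enteroendocrine-like cells Cd74 was found in 1 of the 63 with H2-Ab1 (1.59%) and in 23 of the 1650 without it (1.39%). Most enteroendocrine-like cells with a beta chain of I-A therefore had no H2-Eb1 or Cd74 UMI at this depth, as did most without it.

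Leukocytes express the members strongly, so their markers were read in the same cells. In adult Ptprc-negative stem-like cells 3 of 14 leukocyte genes gave a UMI, 11.8 CPM in sum, of which Lcp1 gave 8.40, and Coro1a, Laptm5, Tyrobp, Fcer1g, Cd52 and Cd53 were at 0. The macrophage list gave 15.8 CPM over 5 of 12 genes, with Csf1r, C1qb and C1qc at 0, the T and NK cell list 1 UMI, and the B and plasma cell list 2.40 CPM with Ms4a1 at 0. Of the dendritic cell list, 2 of 10 genes gave a UMI, and Irf8 alone was at 118 CPM, with Itgax, Flt3, Clec9a and Ccr7 at 0. The genes named here at 0 thus gave no UMI in the adult stem-like cells, while Lcp1, Irf8 and 5 macrophage genes did. Ptprc, 1 of the 14 leukocyte genes, was at 0 by the choice of cells. A leukocyte part in the class II values of these cells was not tested. With every cell that had a leukocyte-list UMI left out, stem-like cells were at 342 CPM and enterocyte-like cells at 362.

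The irradiated enterocyte-like cells had more transcripts of the T and NK cell, macrophage and leukocyte lists than the adult ones. Irf8, of the dendritic cell list, went the other way, at 38.7 CPM against 139 in the adult. The T and NK cell list gave 63 UMIs in the irradiated enterocyte-like cells, against 0 UMIs in the adult ones. Most of them came from 1 gene, the chemokine Ccl5 at 12.6 CPM, so the value describes that gene more than the list. The mast cell list gave 24.2 CPM, led by the protease Cma1 at 13.1, and the macrophage list 35.6 CPM, led by Cd14 at 17.5, against 11.9 CPM in the adult. The leukocyte list gave 20.8 CPM over 7 of 14 genes against 8.38 CPM over 4. The part of these transcripts in the class II values of the irradiated cells was not tested. Over all Ptprc-negative epithelium the leukocyte list summed to 19.1, 51.9, 89.9 and 36.9 CPM from E12.5 to the irradiated adult, led in both adults by Rac2, which was at 1061 CPM in adult tuft-like cells.

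Cells with a Ptprc UMI did not have more class II transcripts as a whole, at 74.6 CPM (66.0 to 84.0) in the adult beside 170 CPM in Ptprc-negative cells and 19.1 CPM (15.3 to 23.6) beside 25.7 CPM after irradiation. There were 0 at E12.5, 3 at E17.5, 560 in adults and 340 after irradiation, and 513 and 272 of these were tuft-like, a lineage in which Ptprc is known to be expressed. Adult Ptprc-positive tuft-like cells were at 24.4 CPM (19.0 to 30.9) beside 32.8 CPM (25.1 to 42.3) for the Ptprc-negative ones, and irradiated ones at 9.67 CPM (6.47 to 13.9) beside 18.4 CPM (12 to 27). The intervals of both pairs overlap. The other 47 adult Ptprc-positive cells were higher, at 232 CPM (201 to 266), and carried 751 UMIs of the T and NK cell list, led by Gzma at 448 CPM. Of their 206 member UMIs, 104 came from 4 stem-like and 81 from 11 enterocyte-like cells, the classes with high levels, against 9 from 26 enteroendocrine-like cells. The other 68 in the irradiated adult were at 37.3 CPM (28.3 to 48.2). At E17.5 the 3 positive cells had 4 UMIs of H2-DMa and a macrophage list at 6077 CPM, led by C1qb.

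The class II genes outside the members were hardly detected. Of 6 listed, 4 were found by symbol, and H2-Ea and H2-Ea-ps were not. H2-Eb2 and H2-Ob gave 0 UMIs in all 4 libraries, H2-DMb2 1 UMI and H2-Oa 7, 1, 2 and 0. The DNA-binding factors that recruit Ciita (Rfx5, Rfxap, Rfxank, Nfya, Nfyb, Nfyc and Creb1) were present throughout, and 0 of 7 were past 2-fold in each of the 3 comparisons. Rfx5, for example, was at 4.63, 5.60, 6.47 and 9.04 CPM from E12.5 to the irradiated adult, while Ciita gave 0 UMIs in both fetal libraries.

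Genes of the interferon gamma pathway, which induces Ciita, were counted in the same way. Of 9 receptor and signalling genes, 4 were past 2-fold higher at E17.5 over E12.5, 2 in the adult over E17.5 (Jak2 at a log2 ratio of 1.13 and Irf1 at 1.14) and 0 in the irradiated over the normal adult. Irf1, a transcription factor induced by interferon gamma, was at 18.6, 30.4, 68.1 and 67.1 CPM in the 4 libraries in order. Ifng itself gave 0 UMIs in all 4.

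MHC class I, which presents peptides made inside the cell, was higher earlier. Of 11 class I genes tested, 10 were past 2-fold higher at E17.5 over E12.5, with H2-Q7 lower at a log2 ratio of -1.45, and 10 were higher in the adult over E17.5. H2-K1 was at 34.9, 252, 536 and 445 CPM and B2m, its light chain, at 39.1, 129, 271 and 197 CPM. After irradiation 2 of the 11 were past 2-fold lower, H2-Q7 by a log2 ratio of -1.65 and the immunoproteasome subunit Psmb9 at -1.48, where all 7 class II members were. At E17.5 H2-K1 alone was thus far above the summed class II level of 6.65 CPM.

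By the count of genes past 2-fold, loading and costimulation did not follow the members. Of 5 endosomal genes tested, 0 were past 2-fold in the adult over E17.5, and in the irradiated adult Ctsd and Lgmn, lysosomal proteases, were higher by log2 ratios of 1.12 and 2.11. Ctss, the cathepsin that trims the invariant chain, was at 0, 9.47, 17 and 11 CPM. Within the adult it was at 69.8 CPM in enterocyte-like and 26.2 in stem-like cells, against 6.85 in enteroendocrine-like and 1.64 in tuft-like cells. That order was also the one of the summed members on these 2 sides, but Paneth-like cells, at 3.08 CPM, were below enteroendocrine-like cells for Ctss and above them for the members. Cd80 and Cd86, the costimulators of professional presenting cells, gave 0 UMIs in adult epithelium, where H2-Ab1 gave 1422. In the irradiated adult Cd80 gave 30 UMIs, with 5.47 CPM in enterocyte-like cells. Icam1 was past 2-fold lower in the adult over E17.5 (-1.68) and higher in the irradiated adult (1.79).

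Across 22 sums of UMIs over a class in a library, each member was set beside the sum of the other 6 as log2 CPM. Pearson's r was 0.96 for H2-Eb1, 0.93 for Cd74, 0.91 for H2-Aa and H2-Ab1, 0.87 for Ciita, 0.84 for H2-DMb1 and 0.72 for H2-DMa. Of 12541 other genes, those most like the summed members included Slc1a1 (0.91), Rbp7 (0.90), Slco2b1 (0.89), Lrrc31 (0.88), Rdh7 (0.87), Tstd1 and Adh6a (both 0.86). Apart from Lrrc31 and Tstd1, those named were highest in adult enterocyte-like cells. The 22 points share libraries and depths, so these values describe the libraries and carry no p.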

How the data were processed

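The deposited tables hold raw UMI counts per gene and barcode, which the authors made with Cell Ranger 3.1.0 on mm10, per the submitters' processing notes; the rule that selected barcodes is not given in the sources used here. The members and all gene lists were chosen with earlier results of these data known. Cells needed 500 genes and no more than 20% mitochondrial UMIs, and the highest Scrublet scores were removed at 0.8% per 1000 barcodes (153 to 193 cells per library), since its automatic threshold called 0 to 26. Each library was clustered alone (scanpy 1.11.5, 2000 variable genes without the members, 30 components, 20 neighbours, Leiden resolution 1) and clusters were named from fixed marker lists, with naming thresholds set after clusters had been seen. UMIs were summed per library and class and given as CPM with exact Poisson intervals, ratios with exact conditional binomial intervals and shares with Clopper-Pearson intervals, all at 95%. A count of 0 was replaced by 3 counts per group for a bound. Ratios past 2-fold were counted on log2((CPM + 1)/(CPM + 1)) among genes that reached 50 UMIs in 1 of the 2 libraries. On counts simulated with the Poisson error that the intervals assume, 94.5% to 97.0% of intervals held the true fold. These counts had no spread between cells or animals, so the figure checks the computation only. Beside the 7 members, genes were named from lists (any gene of a list of up to 8, otherwise the 3 with most UMIs and those past 2-fold), as leading or defining genes of clusters and marker lists, and as the 8 most like the members; some genes these rules select are not reported here. Alternatives varied the cell filter, doublets, leukocyte-list cells, resolution, pseudocount, scaling (edgeR 4.0.16 TMM), gene minimum and thinning depth. No column of values was without a sample.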

Additional observations from a re-analysis of the deposited data

Results flagged for a closer look

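Member transcripts were also present in barcodes that failed the cell filter and enter no comparison above. Summed over the 7 genes, these barcodes were at 4.97 CPM at E12.5 (990 barcodes, 8 UMIs, 2.15 to 9.79), 50.6 CPM at E17.5 (630 barcodes, 38 UMIs, 35.8 to 69.5), 126 CPM in the adult (2499 barcodes, 849 UMIs, 118 to 135) and 37.8 CPM in the irradiated adult (2812 barcodes, 354 UMIs, 33.9 to 41.9). The values were above what a count of 0 allows in each library. Beside the cells that passed, the level was higher at E17.5 and after irradiation, lower in the adult and at E12.5 the level of the passing cells lay within the interval of the failed barcodes. The failed barcodes had median depths of 1276.5, 808.5, 1606 and 2381.5 UMIs. In the adult and the irradiated adult their levels were above those of enteroendocrine-like cells (44.3 and 19.2 CPM) and tuft-like cells (32.8 and 18.4 CPM). Irradiated Paneth-like (6.04 CPM) and goblet-like cells (16.7 CPM) and every gut class at E17.5 were also below the failed barcodes of their library. Adult Paneth-like cells were at 112 CPM, with an interval (101 to 123) that overlaps that of the failed barcodes. The part of RNA from outside the cell in all of those classes was not tested.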

How the results depend on the processing

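In log2, the summed ratio of E17.5 over E12.5 was 0.78 and changed most, to 0.31, at a pseudocount of 10 CPM. Adult over E17.5 was 4.48, and became 4.19 under the stricter filter, 4.13 without cells holding a leukocyte-list UMI, 2.43 in enteroendocrine-like cells alone, 5.45 outside these and tuft-like cells, 3.32 as a mean over cells of each cell's CPM, 4.66 and 3.43 at pseudocounts of 0.1 and 10 CPM, and 3.79 without the stem-like cluster. Irradiated over normal adult was -2.68, and became -2.45 with every barcode, -2.43 without leukocyte-list cells, -1.16 in enteroendocrine-like cells alone, -3.17 outside these and tuft-like cells, -1.81 as a mean over cells, -2.34 at 10 CPM and -1.99 without the stem-like cluster. Leaving out the stem-like cluster, the unnamed clusters or the cell with most member UMIs were alternatives chosen after seeing the data.

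Members past 2-fold numbered 0 at E17.5 over E12.5. The count was 1, higher, with the mean over cells (17.4% of all genes higher) or a pseudocount of 0.1 CPM (18.4%). The 7 in the adult over E17.5 (14.1% of all genes) became 3 of 3 tested in enteroendocrine-like cells (11.6%). With a minimum of 500 UMIs they became 3 of 3 (9.71%), and at 10 CPM 4 (4.86%). The 7 in the irradiated adult (5.71% of all genes lower) became 1 of 3 tested in enteroendocrine-like cells and 3 of 3 with 500 UMIs, where fewer genes were tested. The share of all genes at these last 2 settings is not reported here. H2-DMa reversed in the adult over E17.5 in enteroendocrine-like cells alone (-0.30). Shares with a member UMI, 0.546% at E12.5, 1.51% at E17.5, 11.1% in adults and 3.28% after irradiation, were 1.08%, 6.19% and 1.63% in the last 3 at 1000 UMIs, 1.44%, 2.60%, 19.8% and 6.87% at 4000 UMIs, and 6.62%, 10.5%, 22.3% and 14.5% unthinned. Where not stated, the cause was not tested. No cluster met the adult stem or enterocyte markers under the stricter filter or at resolution 0.5, and enteroendocrine-like cells gave no value at E12.5, where there were none. The adult stem-like level was 342 to 446 CPM where it could be computed. No paired analysis was possible because each group has 1 library and the labels tie no animals together. Depth limited Ciita, H2-Aa and Cd74 in fetal cells and Ciita, H2-DMb1 and most members in tuft-like cells, where a count of 0 allows 3 UMIs.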

Other observations

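Interferon-induced genes were counted in the same cells as a list of 16, of which 7, 8 and 10 reached 50 UMIs in the 3 comparisons. From E12.5 to E17.5, 2 were past 2-fold higher, and from E17.5 to the adult 4 were higher and 1, the chemokine Cxcl10, lower (-1.21). Isg15, a ubiquitin-like modifier, was at 0.0852, 1.22, 40.4 and 23.1 CPM from E12.5 to the irradiated adult. Zbp1, a sensor of nucleic acids, was at 0.0852, 0.145, 11.8 and 16.5 CPM, and Igtp, a GTPase induced by interferon gamma, at 0.828, 0.644, 7.92 and 4.62 CPM. In the irradiated over the normal adult 0 were past 2-fold lower, where all 7 class II members were, and Cxcl10 was higher (1.27). Psmb8, an immunoproteasome subunit encoded near the class II genes, was at 0.0730, 15.1, 146 and 74.7 CPM. Irf8, known best from dendritic cells and B cells, was at 4.37, 37.1, 65.3 and 48.3 CPM in Ptprc-negative gut epithelium.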
